A study of Mus musculus with 15 samples.

Results

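Antibody RNA in the lung was described through 10 genes, chosen by their symbols out of the 57010 genes of the count and TPM tables. They were the constant regions of the 4 IgG subclasses (Ighg2c, Ighg2b, Ighg1 and Ighg3), of IgA (Igha), IgM (Ighm) and IgD (Ighd), the kappa light chain constant region (Igkc), and the plasma cell genes Jchain and Mzb1. The genes were selected on measured values of these libraries, in which a silica library and a DMSO library stood far above the rest, so their levels in the comparisons that hold those libraries are a description. All 10 genes passed the filter on low counts, as did 17879 genes in all.

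RNA of lungs of C57BL/J mice was sequenced in 15 libraries. In the silica_DMSO group (n = 4) silica was followed by DMSO (dimethyl sulfoxide) on the second day, the silica group (n = 3) was given silica in suspension as nasal drops, the DMSO group (n = 4) received DMSO, and the control group (n = 4) received saline. All lungs were taken after 30 days. The labels do not state whether each library came from a separate animal, so p-values measure the spread between these libraries, which may be technical.

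An antibody consists of heavy and light chains. A B cell first makes IgM and IgD from the same heavy chain locus, and class switching then joins its variable region to the constant region of an IgG subclass or of IgA. Plasma cells are the B lineage cells that secrete antibody in bulk. In airway mucosa they are known for IgA, which the J chain protein links into dimers for transport across the epithelium, and in C57BL/6 mice Ighg2c stands in place of the Ighg2a of other strains. In bulk tissue, more plasma cells and more antibody RNA per cell cannot be told apart.

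The heavy chain genes lie on the minus strand of chromosome 12 in GENCODE M21 (build GRCm38), from Ighm at 113418558 to 113422730 through Ighd, Ighg3, Ighg1, Ighg2b and Ighg2c to Igha at 113254830 to 113260236. Igkc lies on chromosome 6 at 70726435 to 70726966, and Jchain on chromosome 5 at 88519809 to 88527891. The submitters' processing notes name build mm8, so positions are given for orientation only.

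The sequences of the 4 IgG genes are shown because they set how well reads can tell the subclasses apart. In an alignment of the coding sequences of each gene's shorter annotated transcript, Ighg2c and Ighg2b were the same at 85.9% of aligned positions, and the other pairs at 74.9% to 76.9%. In the 60-base stretch with the most differences, the 4 genes differed at 36 positions. Capitals mark the positions at which not all 4 genes hold the same base.
Ighg2c: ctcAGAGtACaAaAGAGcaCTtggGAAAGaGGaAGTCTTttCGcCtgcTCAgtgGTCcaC
Ighg2b: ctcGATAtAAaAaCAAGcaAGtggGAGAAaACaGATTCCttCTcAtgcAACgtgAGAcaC
Ighg1: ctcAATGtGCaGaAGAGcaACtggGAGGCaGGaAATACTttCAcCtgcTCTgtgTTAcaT
Ighg3: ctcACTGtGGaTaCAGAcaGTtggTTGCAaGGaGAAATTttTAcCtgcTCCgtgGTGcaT

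In the stretch with the fewest differences, 10 of 60 positions differed, and Ighg2c and Ighg2b had the same letters throughout.
Ighg2c: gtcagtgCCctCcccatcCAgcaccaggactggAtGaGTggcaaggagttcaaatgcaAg
Ighg2b: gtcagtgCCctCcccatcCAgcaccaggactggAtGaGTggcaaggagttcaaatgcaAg
Ighg1: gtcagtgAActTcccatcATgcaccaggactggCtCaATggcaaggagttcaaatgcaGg
Ighg3: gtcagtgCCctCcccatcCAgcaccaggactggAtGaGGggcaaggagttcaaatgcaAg

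This stretch lies inside the longest run that Ighg2c and Ighg2b share, 78 bases long.
Ighg2c and Ighg2b: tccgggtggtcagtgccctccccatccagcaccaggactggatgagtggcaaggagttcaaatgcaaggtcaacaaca

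Of the 955 runs of 50 bases in Ighg2c, 56 (5.86%) also occur in Ighg2b, and no run of 50 bases is shared by any other pair of the 4 genes. The deposited counts of Ighg2c and of Ighg2b were not whole numbers (to within 0.005) in 5 of 15 libraries each. The sum of both was whole (to within 0.05) in all libraries but 1, silica 1, where Ighg1 was not whole either, and the sum over the 4 IgG genes was whole to within 0.05 in all 15. Levels of Ighg2c and Ighg2b are therefore uncertain by the reads divided between them, and in silica 1 also by those divided with Ighg1. Counts of Mzb1 were not whole in 6 of 15 libraries, so its levels are uncertain in this way too. With which gene its reads were divided was not examined.

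Some libraries stood apart from their group. Rag1, the recombinase of developing lymphocytes, was at 459, 392.4 and 682.1 TPM (transcripts scaled to the same total per library and to gene length) in silica_DMSO 4, silica_DMSO 6 and DMSO 7, and at no more than 0.04 TPM in the other 12 libraries. In these 3 libraries the 7 alveolar type 2 genes summed to 274 to 13394 TPM, against 17533 to 53529 TPM in the other 12, so lung markers were low there. Genes over 3000 bases took 11.5% to 44.9% of counts, with 42.8% in silica 1 and 12.4% in DMSO 4. Totals were 17434653 to 20829923 counts per library. All levels are therefore given per library, with silica 1, DMSO 4 and the 3 libraries of high Rag1 named.

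IgG2c RNA was high in silica 1 and, less so, in DMSO 4. Ighg2c, the subclass linked in mice to interferon-gamma responses, was at 159, 59.7, 66.6 and 127 TPM in silica_DMSO 2, 4, 5 and 6, at 7798, 127 and 55.5 TPM in silica 1, 2 and 7, at 302, 1280, 36.4 and 87.5 TPM in DMSO 1, 4, 6 and 7, and at 67.3, 497, 22.7 and 177 TPM in control 1, 2, 4 and 7. Silica 1 was 80.4 times and DMSO 4 was 13.2 times the median of the 10 lung libraries left without both and without the 3 of high Rag1. Silica 2 and silica 7 lay within the range of the controls, and all 4 groups overlapped. The silica_DMSO mean was 103 ± 48.0 TPM (SD, n = 4), the silica mean 2660 ± 4450 TPM (SD, n = 3), the DMSO mean 426 ± 580 TPM (SD, n = 4) and the control mean 191 ± 214 TPM (SD, n = 4). The value of silica 1 rested on 105586 estimated counts of Ighg2c, and that of control 4, the lowest, on 321.

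Ighg2b, the neighbouring IgG subclass, followed the same order at the top. It was at 815, 61.3, 100.2 and 167 TPM in silica_DMSO 2, 4, 5 and 6, at 6594, 61.4 and 23.1 TPM in silica 1, 2 and 7, at 543, 871, 15.1 and 71.4 TPM in DMSO 1, 4, 6 and 7, and at 85.5, 155, 39.6 and 264 TPM in control 1, 2, 4 and 7. Silica_DMSO 2 and DMSO 1 also lay above every control for this gene. Among the 10 libraries other than silica 1, DMSO 4 and the 3 of high Rag1, Ighg2b ranged over 53.9-fold.

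Ighg1, the subclass linked in mice to interleukin-4, varied most. It was at 59.5, 2.22, 26.4 and 0.96 TPM in silica_DMSO 2, 4, 5 and 6, at 2077, 58.2 and 3.75 TPM in silica 1, 2 and 7, at 296, 206, 1.14 and 5.74 TPM in DMSO 1, 4, 6 and 7, and at 29.7, 13.4, 7.74 and 1.6 TPM in control 1, 2, 4 and 7. The other 10 libraries spanned 260-fold, from 1.14 to 296 TPM, and DMSO 1, not DMSO 4, was second to silica 1. Ighg3, known for antibodies to polysaccharides, ranged from 6.08 to 36.5 TPM in silica_DMSO, from 4.54 to 270.3 TPM in silica, from 3.44 to 94.4 TPM in DMSO and from 3.68 to 17.4 TPM in control lungs. Its order at the top was silica 1, DMSO 1 and silica 2, with DMSO 4 at 31.8 TPM.

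IgA was the main class of most lungs, and silica 1 stood less far above the rest in it than in IgG. Igha was at 2022, 322, 793 and 207 TPM in silica_DMSO 2, 4, 5 and 6, at 5022, 492 and 344 TPM in silica 1, 2 and 7, at 1551, 2426, 129 and 220.1 TPM in DMSO 1, 4, 6 and 7, and at 1179, 1251, 519 and 999.8 TPM in control 1, 2, 4 and 7. Silica 1 was 5.6 times and DMSO 4 2.71 times the median of the other 10 libraries. Silica 2 and silica 7 lay below every control, as did DMSO 6 and the 3 libraries of high Rag1.

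The genes of unswitched B cells showed other orders. Ighm was at 430.5, 835, 71.4 and 716 TPM in silica_DMSO 2, 4, 5 and 6, at 1082, 334 and 162 TPM in silica 1, 2 and 7, at 472, 393, 173 and 659 TPM in DMSO 1, 4, 6 and 7, and at 106, 307, 208 and 322 TPM in control 1, 2, 4 and 7. The 3 libraries of high Rag1 came next after silica 1. The part of the Rag1-bearing tissue in these values was not tested.

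Ighd, the receptor class of naive B cells, was the exception among the 10 genes. It was at 12.4, 3.95, 2.05 and 8.10 TPM in silica_DMSO 2, 4, 5 and 6, at 23.1, 13.4 and 14.2 TPM in silica 1, 2 and 7, at 18.1, 2.77, 41.1 and 9.10 TPM in DMSO 1, 4, 6 and 7, and at 9.46, 38.4, 76.1 and 25.4 TPM in control 1, 2, 4 and 7. Silica 1 was at 1.43 times the median of the other 10 libraries and DMSO 4 at 0.172 times, the lowest ratio of any of the 10 genes there. The highest library was control 4. The ratio of Ighd to Ighm TPM was 0.00473 to 0.0288 in silica_DMSO, 0.0213 to 0.0873 in silica, 0.00705 to 0.238 in DMSO and 0.0789 to 0.366 in control lungs. The silica_DMSO and control ranges of this ratio did not overlap; silica_DMSO 2 and 5, the libraries without high Rag1, were at 0.0288 and 0.0287. The ratio was looked at after the values were seen and has no test.

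Kappa light chain, J chain and Mzb1 RNA were each highest in silica 1 and second highest in DMSO 4. Igkc was at 5451, 2096, 3581 and 2317 TPM in silica_DMSO 2, 4, 5 and 6, at 35844, 2041 and 1335 TPM in silica 1, 2 and 7, at 6585, 16804, 748 and 1563 TPM in DMSO 1, 4, 6 and 7, and at 4758, 4412, 1490 and 2706 TPM in control 1, 2, 4 and 7. The ratio of Igkc to the summed heavy chain TPM stayed between 1.47 and 3.36 in all 15 libraries, with 1.57 in silica 1 and 3.22 in DMSO 4. Heavy and light chain RNA thus varied together over a range in which the heavy chain sum itself went from 399 TPM in DMSO 6 to 22867 TPM in silica 1. The ratio was highest in silica_DMSO 5, DMSO 4 and control 1 (3.36, 3.22 and 3.2), where genes over 3000 bases took 11.5%, 12.4% and 24.2% of counts. Silica 7 and DMSO 1, at 22.5% and 23.7%, had 2.2 and 2.01. The remaining libraries, at 34% to 44.9%, had 1.47 to 1.94. Igkc is the shortest of the 10 genes at 532 bases. The part of gene length in this ratio was not tested.

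Jchain was at 761, 229, 476 and 214 TPM in silica_DMSO 2, 4, 5 and 6, at 3139, 242 and 152 TPM in silica 1, 2 and 7, at 1329, 2019, 68.0 and 231 TPM in DMSO 1, 4, 6 and 7, and at 266, 783, 145 and 462 TPM in control 1, 2, 4 and 7. Silica 1, DMSO 4 and DMSO 1 were the 3 highest libraries. Per TPM of IgA and IgM together, Jchain was highest in DMSO 4 at 0.716 and DMSO 1 at 0.657, then silica_DMSO 5 at 0.551 and silica 1 at 0.514, and it ran down to 0.198 in silica_DMSO 4.

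Mzb1 is a chaperone partner in the endoplasmic reticulum of plasma cells and marginal zone B cells. Without silica 1, DMSO 4 and the 3 libraries of high Rag1, it had the narrowest spread of the 10 genes. It was at 37.2, 25.9, 40.2 and 46.7 TPM in silica_DMSO 2, 4, 5 and 6, at 276, 14.4 and 21.1 TPM in silica 1, 2 and 7, at 45.9, 153, 14.6 and 18.4 TPM in DMSO 1, 4, 6 and 7, and at 16.5, 20.7, 17.2 and 19.4 TPM in control 1, 2, 4 and 7. The other 10 libraries differed by 3.18-fold at most. Mzb1 did not follow the heavy chain sum closely: per 1000 TPM of that sum it ran from 9.1 in control 2 to 37.7 in silica_DMSO 5. In TPM, every silica_DMSO library lay above every control for Mzb1, the 1 gene of the 10 of which this held, beside 0.906% of the 17879 genes tested. Silica_DMSO 4 and 6 among them are libraries of high Rag1. In expected counts of Mzb1 the groups overlapped, with 293 in silica_DMSO 4 and 315 in control 1. The totals of these libraries were 19267598 and 18976110 counts. The mean was 37.5 ± 8.69 TPM in silica_DMSO and 18.4 ± 1.95 TPM in control lungs (SD, n = 4 each). The edgeR quasi-likelihood test did not call the difference (log2 fold change 1.82 ± 1.15 SE, adjusted p = 0.387). That fold change comes from counts scaled by a TMM factor per library, not from TPM. It was 0.58 without silica_DMSO 5, whose factor was the lowest at 0.478.

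**Figure D1:**
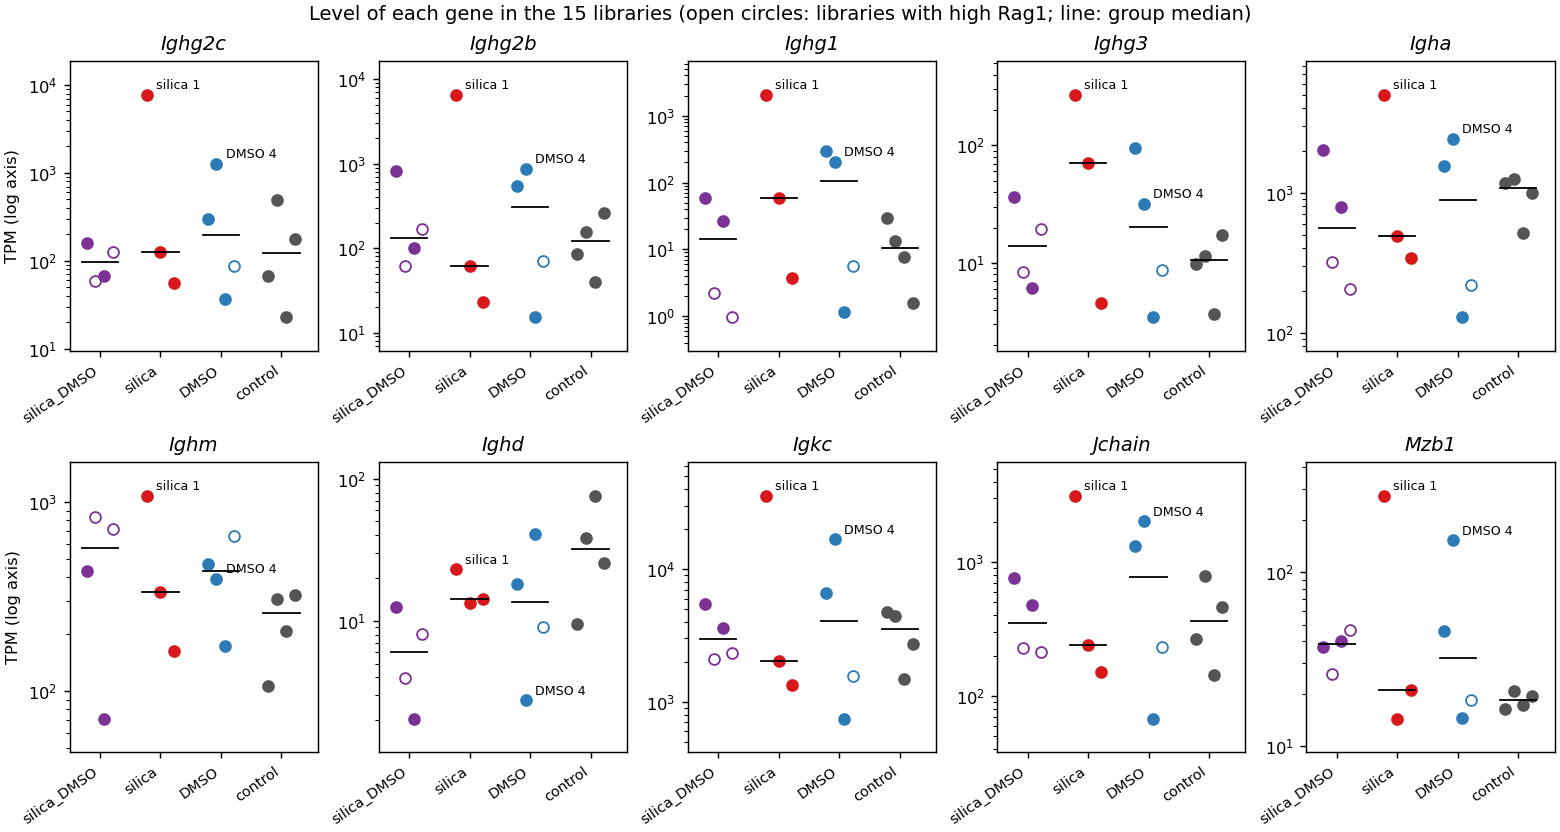
TPM of each of the 10 genes on a log axis in the 15 libraries, by group, with a line at the group median and open circles for the 3 libraries of high Rag1. Silica 1 is the highest point for 9 genes and lies between the controls for Ighd.

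The classes took different shares of the heavy chain RNA, counted as each gene's TPM over the sum of the 7 heavy chain constant genes. The 4 IgG genes together made up 73.2% in silica 1, 45.8% in DMSO 4 and 37.7% in DMSO 1, while the other 12 libraries held between 8.41% and 30.3%. Igha took 46.6% in DMSO 4 and 55.0% to 79.3% in control lungs, and its share in silica 1 was the lowest of the 12 libraries without high Rag1. Ighm took 64.6%, 57.5% and 62.1% in silica_DMSO 4, silica_DMSO 6 and DMSO 7, the libraries of high Rag1, and 4.73% to 43.3% in the other 12. In silica 1 the IgG RNA was 46.6% Ighg2c, 39.4% Ighg2b, 12.4% Ighg1 and 1.61% Ighg3. In DMSO 4 it was 53.6% Ighg2c, 36.4% Ighg2b, 8.63% Ighg1 and 1.33% Ighg3. DMSO 1 had another mix, with 24.4% Ighg2c, 43.9% Ighg2b, 24.0% Ighg1 and 7.64% Ighg3. In silica 2, Ighg3 took 22.4% of IgG, more than in any other library. The constant genes of heavy and kappa chains together held 5.87% of all TPM in silica 1, 2.2% in DMSO 4 and 0.115% to 0.986% in the other 13 libraries.

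**Figure D2:**
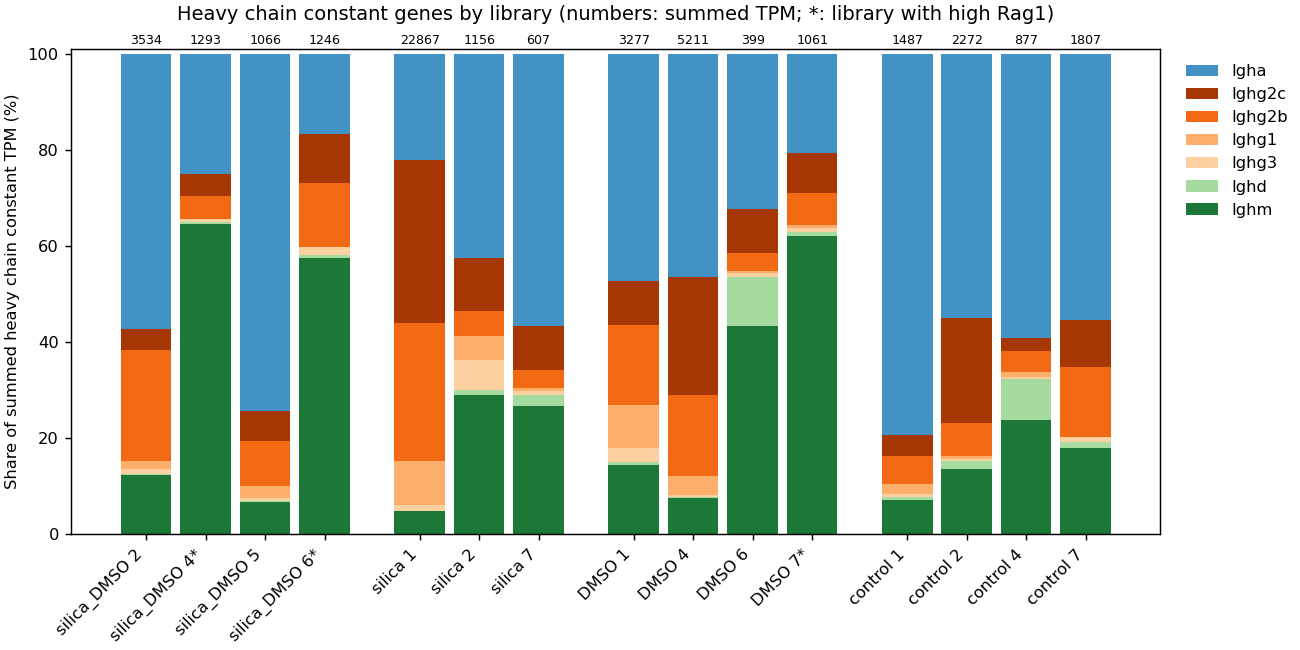
Share of each heavy chain constant gene in their summed TPM (%, stacked bars) per library, with the sum in TPM above each bar and an asterisk for the 3 libraries of high Rag1. Orange IgG segments fill 73.2% of the bar of silica 1, and green Ighm segments 57.5% to 64.6% of the bars with an asterisk.

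Shares were tested between silica_DMSO and control lungs, the comparison with neither silica 1 nor DMSO 4. The IgG share was 21.1 ± 8.68% in silica_DMSO and 19.1 ± 10.1% in control lungs (SD, n = 4 each), a difference of 1.96 percentage points (exact two-sided permutation p = 0.743, adjusted p = 0.743). The IgA share was 43.3 ± 27.1% in silica_DMSO and 62.2 ± 11.6% in control lungs, lower by 18.9 points (difference -18.9, exact permutation p = 0.257, adjusted p = 0.6). The IgM share was 35.2 ± 30.0% in silica_DMSO and 15.5 ± 7.0% in control lungs (difference 19.7, exact permutation p = 0.4, adjusted p = 0.6). None of the 3 differences passed, where the smallest p that 4 against 4 libraries allow is 0.0286. Without silica_DMSO 4 and 6, the libraries of high Rag1, the IgA difference was 3.59 and the IgM difference -6.09 points, so both turned their sign.

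Between groups, edgeR called none of the 10 genes in any of the 6 contrasts at an adjusted p under 0.05, and none of the 17879 genes tested (0% in each). At an unadjusted p under 0.05 silica_DMSO held 1, 1 and 1 of the 10 genes against silica, against DMSO and against control, with 1056, 305 and 3075 of all genes. Silica held 2 and DMSO 3 of the 10 genes against control, with 522 and 1275 of all genes. The interaction held 4, with 297 of all genes. The 10 genes were selected with silica 1 and DMSO 4 high, so in contrasts that hold those libraries these counts are no test. Without both libraries, silica against control, DMSO against control and the interaction held 0 each, with 404, 701 and 93 of all genes. Silica_DMSO then held 0, 1 and 2 against silica, DMSO and control, with 438, 381 and 3389 of all genes. The biological coefficient of variation was 0.666, and the standard errors below show how little a group mean was pinned down. The TMM factors were 0.478 in silica_DMSO 5, 0.616 in DMSO 4 and 0.898 to 1.24 in the rest. A low factor raises the scaled counts of its library, so fold changes need not match ratios of mean TPM.

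Silica against control gave positive fold changes for 9 of the 10 genes, with a median of 1.63 on the log2 scale where the median of all genes was 0. Ighg1 had a log2 fold change of 4.85 ± 2.17 (SE), Ighg2b 3.50 ± 1.70 and Ighg2c 3.38 ± 1.66. Igha had 0.46 ± 1.34, Ighm 0.95 ± 0.59 and Ighd -0.88 ± 0.63. Except for Ighd, which was at -0.84 without silica 1, these values turned or shrank when that library was left out. Without silica 1 and DMSO 4 the median was -0.80 and 4 genes were positive, with Ighg2c at -0.79, Ighg2b at -1.50, Igha at -1.11, Igkc at -0.98 and Jchain at -0.81. Ighg1 at 0.84, Ighg3 at 1.68, Ighm at 0.34 and Mzb1 at 0.24 stayed positive. DESeq2 called none of the 10 genes, beside 0.254% of genes, and limma-voom with quality weights, which gives libraries that depart from their group less weight, called Ighd alone (log2 fold change -1.17, adjusted p = 0.0194), beside 8.22%. Under limma-voom the median of the 10 genes was -0.12, and 5 of them had the opposite sign.

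DMSO against control gave positive values for 9 genes with a median of 2.48, beside 0.14 for all genes. Ighg1 had 4.05 ± 2.05, Mzb1 3.01 ± 1.20, Ighg2b 2.78 ± 1.59 and Jchain 2.44 ± 1.32. Without silica 1 and DMSO 4 the median was 0.89, with Ighg2c at 0.10 and Igkc at 0.02, while Ighg1 kept 3.21 and Ighg3 2.21. For those the levels of DMSO 1 were 296 and 94.4 TPM, the highest of the 4 DMSO libraries. DESeq2 called none of the genes, beside 0.355% of genes, and limma-voom called 6, all higher in DMSO, beside 38.9%. In limma-trend on log2(TPM + 1) the value of Igha was -0.71 in place of 1.30, and without DMSO 4 the edgeR value was -0.24.

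Against silica alone, silica_DMSO had negative values for 9 genes and a median of -0.92, beside 0.05 for all genes. Ighg2c had -3.73 ± 1.68 and Ighg1 -3.57 ± 2.06, while Igha had -0.11 ± 1.34 and Ighm 0.04 ± 0.59. Without silica 1 and DMSO 4 the median was 1.05 and 8 genes were positive, with Ighg2b at 2.73 and Jchain at 1.69. DESeq2 called none of them, beside 0.389% of genes, and limma-voom called Ighg1, Ighg3 and Ighd lower and Ighm higher (log2 fold changes -4.61, -2.80, -1.98 and 0.79), beside 68.7%. Against DMSO, silica_DMSO had a median of -1.55 with all 10 values negative, and without silica 1 and DMSO 4 a median of -0.05. DESeq2 called none there, beside 0.00564% of genes, and limma-voom called 9, all lower, beside 69.4%.

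The interaction, which is the silica effect under DMSO minus that without it, had negative values for all 10 genes and a median of -2.96, with Ighg1 at -7.62 ± 2.90 and Ighg2c at -6.46 ± 2.30. Silica 1 and DMSO 4 both enter it with the same sign, and without them the median was 0.53 with 6 genes positive. DESeq2 called none, beside 0.0564% of genes, and limma-voom called 6, all negative, beside 60.5%. Comparisons given here share libraries and are not independent of each other.

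Neither group of silica_DMSO against control holds silica 1 or DMSO 4, but both libraries enter the spread that edgeR estimates over all groups. The comparison had a median of 0.83 with 8 genes positive, beside 0.08 for all genes. That median rested on silica_DMSO 5 and on the method: without that library it was -0.20 with 4 genes positive, in limma-voom it was -0.90 with 2 positive, and in limma-trend on log2(TPM + 1) it was 0.06 with 7 positive. Ighd had the lowest value at -2.14 ± 0.60 (edgeR unadjusted p = 0.00295, adjusted p = 0.218), while Ighg2c had -0.35 ± 1.47, Ighg2b 1.23 ± 1.51 and Igha 0.35 ± 1.25. DESeq2 called Ighd lower (log2 fold change -2.11, adjusted p = 0.0123), beside 5.55% of genes, and limma-voom called 3 of the 10 genes, Ighd lower (-3.15), Igha lower (-1.81) and Ighm higher (1.18), beside 68.4%. Ighd in silica_DMSO averaged 6.63 ± 4.61 TPM, against 37.3 ± 28.4 TPM in control lungs (SD, n = 4 each), and the groups overlapped between 9.46 and 12.4 TPM. Leaving out silica_DMSO 2 brought the edgeR adjusted p of Ighd to 0.0442, in a fit that called 11% of the 17812 genes tested. Without the 3 libraries of high Rag1 the value was -1.73.

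**Figure D3:**
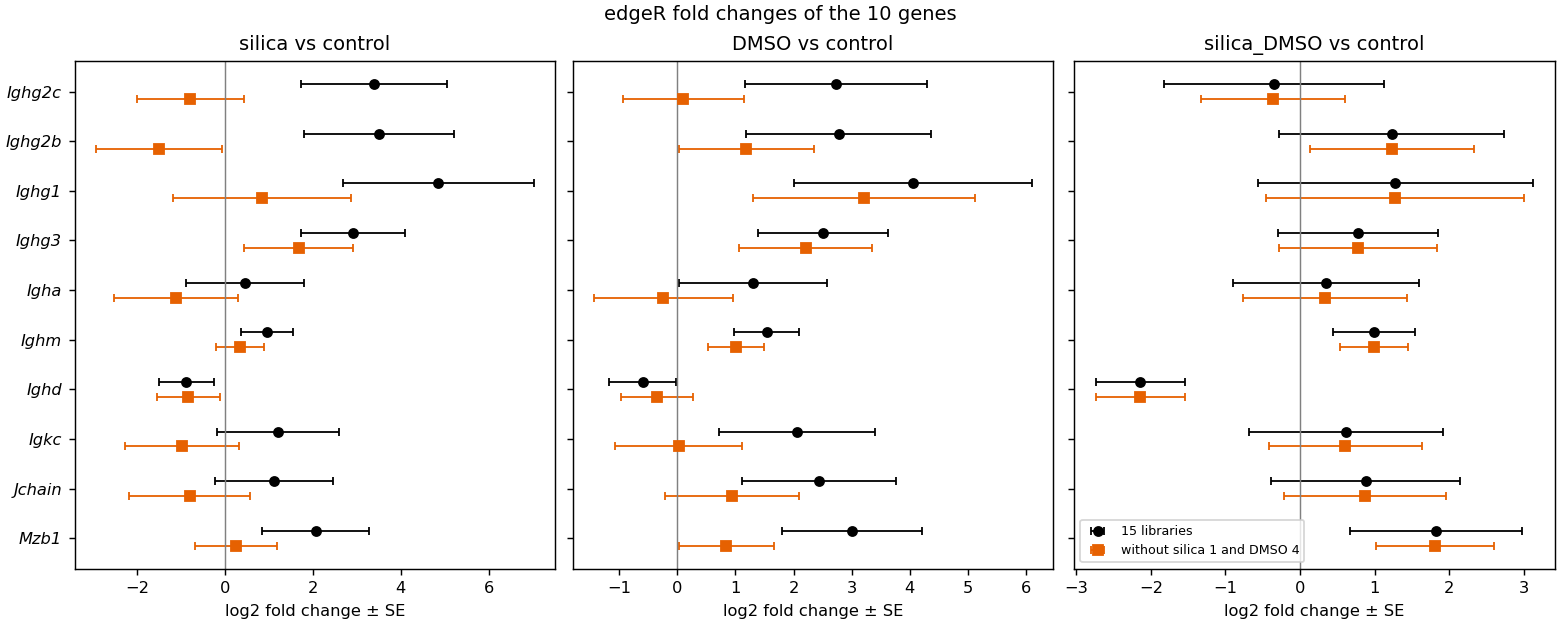
edgeR log2 fold changes of the 10 genes with bars of 1 SE for silica, DMSO and silica_DMSO, each against control, from all 15 libraries (black) and without silica 1 and DMSO 4 (orange). For silica against control, Ighg2c is at 3.38 in black and at -0.79 in orange, while its points for silica_DMSO against control are at -0.35 and -0.36.

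Genes of the B lineage outside the 10 were read in the same libraries to see what moved with silica 1 and DMSO 4. Among the 17879 genes tested, 35.2% had their highest TPM of the 12 libraries without high Rag1 in silica 1 and 2.95% in DMSO 4. By the choice of members, 9 of the 10 genes peaked in silica 1 and 0 in DMSO 4. Of 12 regulators and surface proteins of plasma cells, 10 peaked in silica 1. Xbp1, the transcription factor that expands the secretory apparatus, was at 280 TPM there, beside 48.0 to 136 TPM in the other 11. Sdc1, which encodes the plasma cell marker CD138 that epithelium also carries, was at 113 TPM, and Cd38, a surface enzyme, at 40.4 TPM, below 42.7 TPM in control 4. Tnfrsf17, the survival receptor BCMA of plasma cells, peaked in DMSO 4 at 9.68 TPM, beside 5.73 TPM in silica 1. It and the genes named from these lists beyond the 3 of highest mean TPM were picked after their values were seen.

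Of 14 genes of the secretory apparatus, 12 peaked in silica 1. Hsp90b1 and Hspa5, chaperones of the endoplasmic reticulum, were at 635 and 449 TPM there, and Manf, a stress protein of the same compartment, at 320 TPM. In DMSO 4 the same genes were at 73.3, 65.2 and 126 TPM, within the range of the other lung libraries, and Ssr4, a subunit of the complex at the protein translocation channel, peaked there at 390 TPM. The 14 genes summed to 2482 TPM in silica 1, 1073 TPM in DMSO 4 and 765 to 1474 TPM in the other 10.

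B cell genes parted silica 1 from DMSO 4. Of 14 B cell genes, 11 peaked in silica 1 and 0 in DMSO 4, and they summed to 382 TPM in silica 1, 81.6 TPM in DMSO 4 and 42.7 to 331 TPM in the other 10. Cd79a and Cd79b, the signalling chains of the B cell receptor, were at 95.1 and 82.2 TPM in silica 1, beside 23.1 and 32.5 TPM in DMSO 4 and 90.1 and 75.4 TPM in control 4. Fcmr, a receptor for IgM, was highest in control 4 at 34.5 TPM. DMSO 4 thus combined the second highest constant region RNA with B cell genes below the median of the other 10, which was 127 TPM. The share of short genes differed between the libraries, as given above, and its part in this was not tested.

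**Figure D4:**
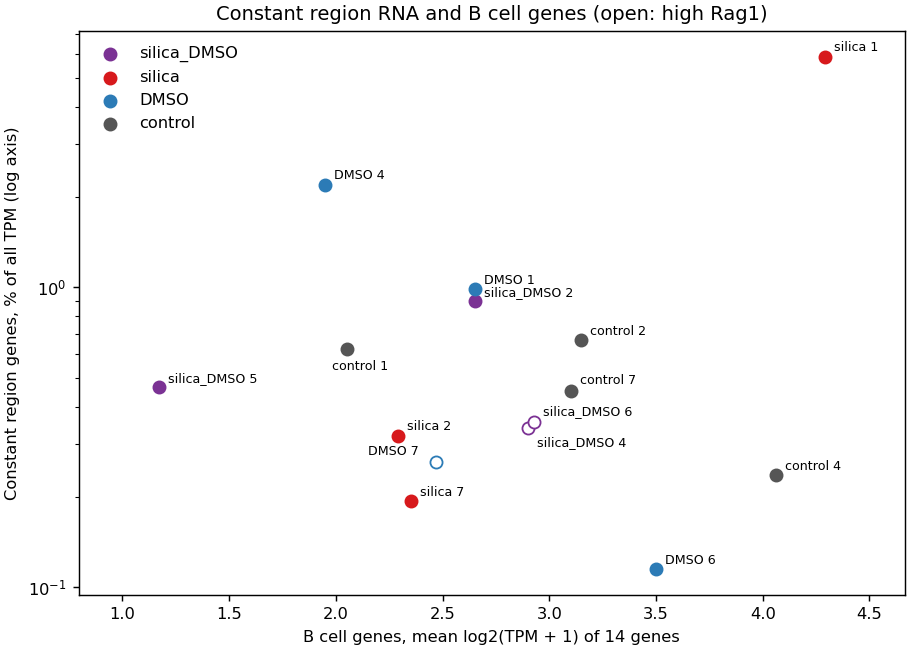
Heavy and kappa constant genes as a percentage of all TPM (log axis) against the mean log2(TPM + 1) of 14 B cell genes, 1 point per library, open for high Rag1. Silica 1 is highest on both axes at 5.87% and 4.29, while DMSO 4 has 2.2% at 1.95 and DMSO 6 has 0.115% at 3.50.

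All 9 germinal centre and class switch genes in the table peaked in silica 1 among the 12 libraries. Cxcl13, the chemokine of B cell follicles, was at 54.3 TPM in silica 1, beside 6.66 to 26.8 TPM in the other 11. Bcl6, the germinal centre repressor, was at 17.2 TPM there, and Msh6, a mismatch repair protein, at 9.71 TPM. Both were higher in the libraries of high Rag1, at 30.9 to 42.9 TPM and 51.1 to 57.7 TPM.

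Of the cytokines that direct switching, 3 of the 6 tested peaked in silica 1. Ifng, known in mice to favour IgG2c, was at 2.37 TPM there, beside 0.29 to 1.95 TPM in the other 11, and Il4, Il5 and Il13 were listed at 0 in silica 1. Tgfb1, which directs switching to IgA, was at 56.8 TPM. Of 8 survival and homing genes 4 peaked in silica 1, with Cxcr4 at 95.1 TPM and its ligand gene Cxcl12 at 105 TPM, below 129 TPM in control 4, and Ccr9 at 0.88 TPM. Of 10 Fc receptor and antibody transport genes 3 peaked there, with Fcer1g, the signalling chain of Fc receptors, at 307 TPM and Fcgr3, a low-affinity IgG receptor, at 177 TPM, and Fcgrt, the neonatal IgG receptor, was at 39.0 TPM, below 75.1 TPM in control 4.

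The lambda light chain differed in make-up. Iglc3 took 50.6% of the lambda TPM in silica 1 and 6.46% to 29.2% in the other 14 libraries, while Iglc1 took 74.0% in DMSO 4 and 20.6% to 66.2% in the other 14. The lambda genes are paralogs between which reads can be divided, so these shares are uncertain. Iglc2 was at 472 TPM in silica 1. The ratio of Igkc to lambda TPM was 19.2 in silica 1 and 13.3 in DMSO 4, inside the range of 5.61 to 26.3 of the other libraries. Ighe, the IgE constant region, was at 5.80 TPM in silica 1 and at 1.25 TPM or less in the other 14.

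Markers of other tissue parts were read beside these. T cell genes summed to 228 TPM in silica 1, 121 TPM in DMSO 4 and 78.0 to 254 TPM in the other 10, and 4 of 8 peaked in silica 1. Lymph node stroma genes summed to 321 TPM in silica 1, 210 TPM in DMSO 4 and 88.2 to 316 TPM in the other 10, with Ccl21a at 226 TPM and Ccl19 at 35.9 TPM in silica 1 as the highest of the 12. Glycam1 and Madcam1, which mark lymph node venules, were at 0.74 and 0.37 TPM in silica 1, at 1.96 and 0.22 TPM in DMSO 4, and at no more than 0.12 and 0.11 TPM in the other 10. Whether lymph node tissue in these samples had a part in the antibody RNA was not tested. Macrophage genes summed to 1131 TPM in silica 1, 435 TPM in DMSO 4 and 303 to 1023 TPM in the other 10, with 3 of 6 highest in silica 1. Endothelial genes summed to 501, 96.2 and 232 to 1366 TPM in silica 1, DMSO 4 and the other 10, alveolar type 2 genes to 37839, 17533 and 20977 to 53529 TPM, and erythroid and marrow genes to 2732, 7940 and 559 to 21086 TPM.

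None of the genes on these lists was called by edgeR in any contrast. In silica against control the median log2 fold change was 1.57 for the 4 further constant genes tested, 0.73 for plasma cell regulators, 0.60 for secretory genes, 1.61 for germinal centre genes and 0.06 for B cell genes, beside 0 for all genes. Without silica 1 and DMSO 4 they were -0.39, -0.19, 0.26, 0.22 and -0.49, beside -0.05. In silica_DMSO against control these medians were 1.54, 0.15, 0.31, 2.20 and -0.88, beside 0.08. The germinal centre genes summed to 109 to 122 TPM in the 3 libraries of high Rag1, of which 2 are silica_DMSO, and to 13.1 to 51.6 TPM in the 10 libraries left without these, silica 1 and DMSO 4. Without the 3 libraries of high Rag1 their median in silica_DMSO against control was -0.25, beside -0.07 for all genes.

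The genes most like Ighg2c and Jchain across the 12 libraries without high Rag1 were found by Pearson's r of log2(TPM + 1), leaving out immunoglobulin and predicted genes. For Ighg2c these were Prg2 (r = 0.94), Fads2b (0.938), Rhbdl2 (0.921), Derl3 (0.914) and Oosp1 (0.889), and for Jchain they were Prg2 (0.912), Ccl20 (0.901), Tnfrsf17 (0.889), Oosp1 (0.879) and Fads2b (0.874). Prg2, the major basic protein of eosinophil granules, was at 29.5 TPM in silica 1, 9.73 TPM in DMSO 4 and 0.74 to 5.74 TPM in the other 10. Derl3, which takes part in disposal of misfolded proteins in the endoplasmic reticulum, was at 19.3, 5.14 and 0.83 to 3.41 TPM in silica 1, DMSO 4 and the other 10. Ccl20, a chemokine for CCR6-bearing lymphocytes, was at 35.9 TPM in silica 1 and 50.2 TPM in DMSO 4. Fads2b reached no more than 0.09 TPM. These r values describe 12 points, of which silica 1 and DMSO 4 lie far from the rest, and libraries differ in depth and in the share of long genes.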

How the data were processed

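The labels' protocols name a TruSeq RNA kit and no strand, and speak of retinas where the tissue field says lung. Bowtie 0.12.2 and build mm8 come from the submitters' processing notes. The deposited expected counts are estimates per gene and library made by the authors, and the deposited TPM table was made by the authors per gene length, with a gene length in bases (other). The 8 columns of authors' means were not used. Expected counts were rounded.

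Genes were filtered with filterByExpr (smallest count 10, smallest total 15) and scaled by TMM. Contrasts of 4 group means were tested with edgeR 4.0.16 (quasi-likelihood, robust) in R 4.3.3, with p-values adjusted by Benjamini and Hochberg over all genes tested and a gene called at an adjusted p under 0.05. DESeq2 1.42.0 and limma 3.58.1 were alternatives, with others given in the closing section. The procedure was run on simulated data with 200 strongly changed genes. The simulated spread was smaller than that of these data, and no simulated library stood apart. The simulation therefore does not show how many changes were missed here. Levels are TPM, shares were compared with exact permutation tests in scipy 1.17.1, and sequences of GENCODE M21 were aligned with mafft 7.526. Figures were drawn with matplotlib 3.10.9.

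The 10 genes, the 15 gene lists and the alternatives were chosen with earlier results of these data known. Named were the 10 genes, the 3 genes of highest mean TPM per list, called list genes, the 5 genes most like Ighg2c and Jchain, and Rag1. Thymocyte genes served to mark libraries: they summed to 3358 to 4116 TPM in 3 libraries and to 5.97 to 50.9 TPM in the other 12. Intervals of single libraries were not computed.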

Additional observations from a re-analysis of the deposited data

Results flagged for a closer look

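Ighg2b in silica_DMSO 2 stood far from the rest of its group, at 815 TPM beside 61.3 to 167 TPM in the other 3 silica_DMSO libraries. The gap to the nearest of them took 0.86 of the group's range, above the limit of 0.829 for 4 samples. Among 39 groups tested in this way, 1 was flagged. Chance flags about 1 in 20 where values are normally distributed. The rule was applied to TPM and shares without a log scale, and Ighg2b in silica_DMSO had a mean of 286 and an SD of 355 TPM. That rate need not hold here, and the flag can depend on the scale. The silica group has too few libraries for this rule and was not tested, so silica 1 could not be flagged. In the same library Ighg2b made up 76.2% of IgG RNA and Ighg2c 14.9%.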

How the results depend on the processing

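The edgeR count of called genes was 0 of 10 in every contrast, also with DESeq2 size factors, without the filter, with the groups compared alone (not run for the interaction), in limma-trend with 1 or 0.1 added to the TPM, at an adjusted p under 0.1, without the 3 libraries of high Rag1, without silica 1 and DMSO 4, and without all 5. Limma-voom with quality weights called 4, 9 and 3 genes for silica_DMSO against silica, DMSO and control, 1 for silica and 6 for DMSO against control, and 6 for the interaction, and turned the sign of 6 of the 10 genes in silica_DMSO against control, Igha to -1.81 among them, and of 5 in silica against control, where the median was -0.12 in place of 1.63. The cause was not tested. DESeq2 called 1, Ighd, in silica_DMSO against control. Leaving out each library gave 0 to 1 there (1 without silica_DMSO replicate 2, where 11% of all genes were called) and 0 elsewhere. For shares it gave differences of -1.62 to 5.59 points for IgG, -29.3 to -10 for IgA and 9.92 to 29.2 for IgM. The IgG difference was -1.1 without silica_DMSO 2, -0.111 without control 1 and -1.62 without control 4. Without silica_DMSO 4 and 6 the differences were 3.59 for IgA and -6.09 for IgM.

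Libraries of the same replicate number were not treated as pairs in the main fit. Correlations of deviations between them ran from -0.487 to 0.266. In groups this small, with libraries that stand apart, these values cannot exclude pairing. With the number as a replicate block edgeR called 0 of the 10 genes in each contrast. The lowest count of an IgG gene was 24, for Ighg1 in silica_DMSO 6, so counting error is largest there.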
